A study of Mus musculus with 6 samples.

Results

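The Notch pathway genes described here are the receptors Notch1, Notch2 and Notch3, the ligands Jag1 and Dll1, the DNA-binding factor Rbpj, the targets Hes1, Hes5 and Hey1, and the glycosyltransferase Lfng. Members were all probe sets of the deposited array table that are annotated to a single gene symbol among these 10 genes. All 10 genes were found, with 17 of the 22626 probe sets tested, out of 12393 genes that the array measures by at least 1 such probe set. The samples were lenses of 3 wild type mice of the NMRI background and of 3 Pax6 heterozygous mice (Pax6 lacZ/+, with a single working copy of Pax6), all newborn at 1 day of age, with both lenses of a mouse pooled in each sample. The replicate numbers 1 to 3 occur in each genotype. The altered Pax6 allele is a germline one and is not limited to the lens. The arrays read whole dissected lenses, so epithelium, fibers and any attached tissue are mixed in each value, and fewer cells of a type and less RNA per cell cannot be told apart.

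Notch receptors are cleaved when a ligand on a neighboring cell, such as Jag1 or Dll1, binds them. The released part enters the nucleus, joins Rbpj on DNA and turns on genes of the Hes and Hey families, which encode transcriptional repressors. In the lens, Jag1 on young fiber cells signals to Notch receptors of the epithelium near the equator, where it helps to keep a pool of dividing cells that feeds fiber growth. In the vessels around the developing lens, Notch receptors and Hey genes are active in endothelium and in mural cells, and in the neighboring retina Notch1, Dll1, Hes1 and Hes5 act in neural progenitors.

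All values are signal intensities on the linear scale, normalized by the authors with robust multichip average (RMA). No amounts of RNA were compared between probe sets, whose probes bind with unequal strength. A signal of 50 or 100, the bounds used in the study to describe the lens transcriptome, serves only as a reading aid. The 33 probe sets of olfactory receptor genes, a guide to background chosen with the values known, had sample medians from 9.65 to 11.02 and a highest single value of 17.6. Array medians over all tested probe sets lay between 21.4 and 22.8. The brightest Pax6 probe set read 1169, 1760 and 963 in wild type and 942, 1170 and 882 in heterozygous lenses. The heterozygous sample was the lower in all 3 pairs of equal number (limma without the replicate block, log2 difference −0.34, unadjusted p = 0.208). Of the dimmer Pax6 probe sets, 1425960_s_at and 1452526_a_at were lower in all 3 pairs and 1456342_at was mixed. The probe set 1437816_at, at 51.2 to 85.6, was higher in all 3. Lens identity was clear, since each of 11 measured lens markers exceeded 100 in all 6 samples, with Crybb1, a beta-crystallin, from 14419 to 16264 and Cryba1, a beta-crystallin too, from 15447 to 17785. Markers of endothelium, mural cells, macrophages and retina were also present and varied between samples, as described below.

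At the brightest probe set of each gene, 7 of the 10 genes exceeded a signal of 100 in all 6 samples. These were all 3 receptors, Jag1, Rbpj, Hey1 and Lfng. The other 3, Dll1, Hes1 and Hes5, stayed under 50 in all 6 samples.

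**Figure D1:**
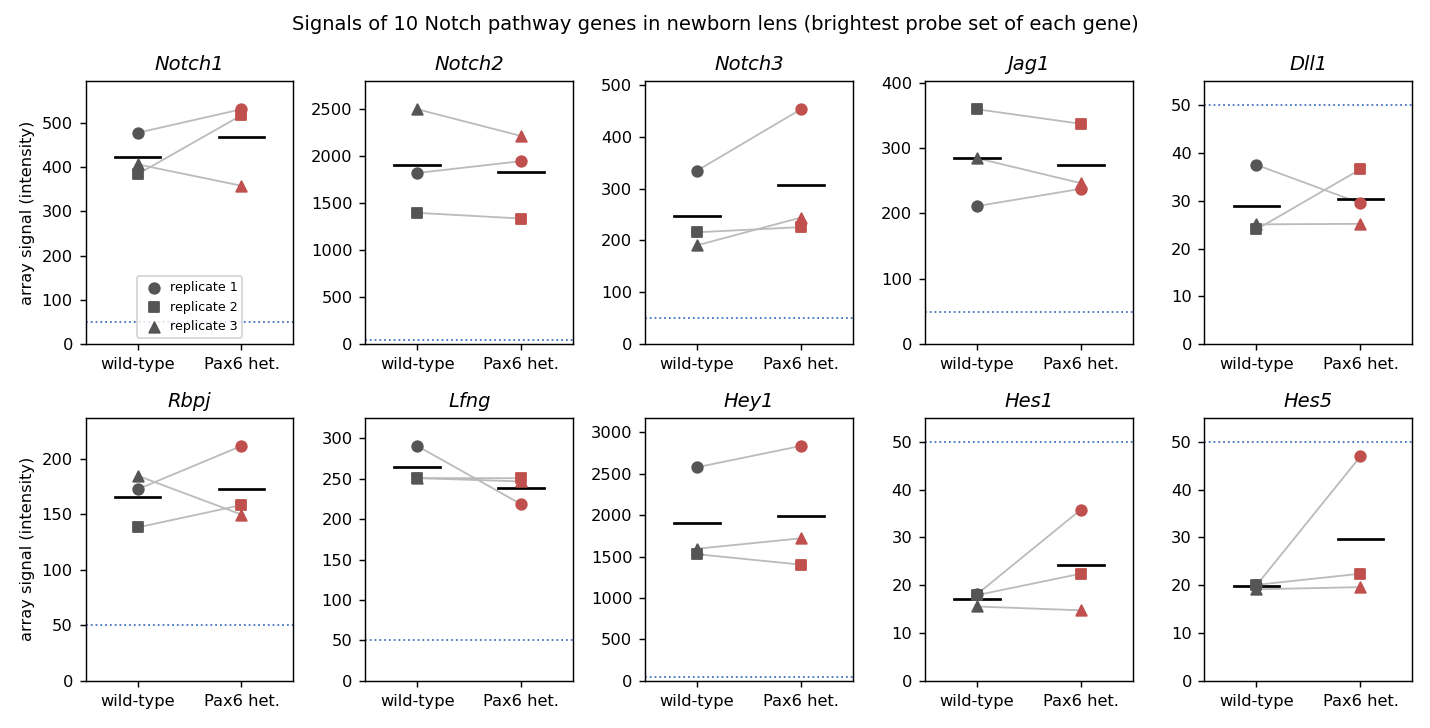
Array signal (intensity, linear axis from 0, scaled for each gene) of the brightest probe set of each Notch pathway gene in wild type and Pax6 heterozygous lenses. Points are samples with a symbol for each replicate number, gray lines join samples with the same number, black bars are means of 3 mice and dotted lines mark a signal of 50. Hey1 and Notch3 are highest in replicate 1 of each genotype, and Hes1 and Hes5 are highest in heterozygous replicate 1.

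Notch2 (probe set 1455556_at) encodes a receptor found in lens epithelium. It read 1819, 1395 and 2495 in wild type replicates 1, 2 and 3 and 1944, 1335 and 2211 in the heterozygous replicates. Replicate 2 was lowest and replicate 3 highest in each genotype, and the genotypes overlapped. The difference, heterozygous minus wild type, was −0.05 on the log2 scale with a 95% interval from −0.71 to 0.61 (limma, adjusted p = 1.00). The dimmer Notch2 probe set (1451889_at) stayed between 9.91 and 11.97, inside the range of the olfactory receptor probe sets, and carried no reading of its own.

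Notch1 (1418634_at), a receptor of neural and blood progenitors, read 477, 384 and 406 in wild type and 530, 517 and 358 in heterozygous lenses. The heterozygous samples held both the highest and the lowest value. The log2 difference was 0.13 (95% interval −0.32 to 0.59, adjusted p = 1.00). Its dimmer probe set (1418633_at) lay between 14.3 and 21.1, with a log2 difference of 0.04.

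Notch3 is a receptor best known from mural cells, the contractile cells around small vessels. Its brighter probe set (1421965_s_at) read 334, 216 and 191 in wild type and 453, 226 and 244 in heterozygous lenses. Replicate 1 was highest in each genotype, and the heterozygous sample was above the wild type sample with the same number in 3 of 3 pairs. The groups overlapped, and the log2 difference was 0.29 (95% interval −0.51 to 1.08, adjusted p = 1.00). An s in a probe set name marks probes shared by several transcripts. The dimmer probe set (1421964_at), without that mark, gave much the same picture, with 220, 157 and 155 against 361, 159 and 166 and a log2 difference of 0.28. Without heterozygous replicate 1 the difference at the brighter probe set was −0.03. In the fit blocked on replicate number, this probe set had an unadjusted p of 0.0476 (limma, adjusted p = 0.547).

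Jag1 encodes the ligand that lens fiber cells present to the epithelium. Its brighter probe set (1421106_at) read 211, 359 and 284 in wild type and 238, 337 and 246 in heterozygous lenses. Replicate 2 was highest and replicate 1 lowest in each genotype, and the genotypes overlapped almost completely. The log2 difference was −0.04 (95% interval −0.61 to 0.53, adjusted p = 1.00). The dimmer Jag1 probe set (1421105_at) read 14.6, 21.7 and 13.1 in wild type and 10.1, 18.4 and 11.8 in heterozygous lenses, again highest in replicate 2 of each genotype. It was lower in heterozygous lenses in 3 of 3 pairs, with a log2 difference of −0.31 (adjusted p = 1.00). In the blocked fit its unadjusted p was 0.0376 (limma, adjusted p = 0.528). The brighter probe set of the same gene had a blocked p of 0.719, so the probe sets of Jag1 did not give the same reading.

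Dll1 (1419204_at), a ligand of neural progenitors, read 37.5, 23.99 and 25.05 in wild type and 29.5, 36.6 and 25.2 in heterozygous lenses. No genotype or replicate number stood apart. The log2 difference was 0.09 (95% interval −0.45 to 0.63, adjusted p = 1.00), and the same-numbered pairs lay at −0.35, 0.61 and 0.01.

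Rbpj encodes the factor through which all Notch receptors act on DNA. Its brighter probe set (1448957_at) read 172, 138 and 185 in wild type and 211, 158 and 150 in heterozygous lenses. The genotypes overlapped, with a log2 difference of 0.06 (95% interval −0.39 to 0.51, adjusted p = 1.00). The dimmer one (1418114_at) lay between 52.5 and 97.1 with a log2 difference of 0.08. At both probe sets the heterozygous sample was higher in the pairs numbered 1 and 2 and lower in the pair numbered 3.

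Hey1 (1415999_at), a repressor induced by Notch in vessels and other tissues, was the target read far above background. It read 2579, 1530 and 1596 in wild type and 2837, 1404 and 1721 in heterozygous lenses. Replicate 1 stood far above the other replicates in each genotype, whereas the genotypes covered much the same range. The log2 difference was 0.04 (95% interval −0.73 to 0.81, adjusted p = 1.00).

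Hes1 (1418102_at), a repressor that holds back neural differentiation, read 18.1, 17.9 and 15.6 in wild type lenses. In heterozygous lenses it read 35.8, 22.4 and 14.7. Heterozygous replicates 1 and 2 were above all wild type samples and heterozygous replicate 3 was below them. The log2 difference was 0.41 (95% interval −0.34 to 1.16, adjusted p = 1.00). Without heterozygous replicate 1 it was 0.08. Without heterozygous replicate 3 it was 0.72 (limma, unadjusted p = 0.0238, adjusted p = 1.00).

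Hes5, the Notch target most closely tied to neural progenitors, read 20.0, 20.1 and 19.1 in wild type lenses at its brighter probe set (1456010_x_at). In heterozygous lenses it read 46.9, 22.4 and 19.6, so a single sample was far above the others. The log2 difference of 0.47 (95% interval −0.30 to 1.25, adjusted p = 1.00) was 0.09 without that sample, heterozygous replicate 1. The dimmer probe set (1423146_at) showed the same sample alone, with 19.3, 17.8 and 18.6 against 32.7, 17.8 and 19.7. An x in a probe set name marks probes that can also match other sequences, but the dimmer probe set carries no such mark.

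Lfng encodes Lunatic fringe, which adds sugars to Notch receptors and thereby changes which ligands they answer to. Its brighter probe set (1420643_at) read 290, 250.6 and 250.6 in wild type and 218, 250.5 and 247 in heterozygous lenses. It was the member with no overlap between the genotypes, yet wild type replicate 3 and heterozygous replicate 2 differed by less than a signal unit. The log2 difference was −0.15 (95% interval −0.45 to 0.16, adjusted p = 1.00). When each array was centred on its median, or after quantile normalization, the genotypes overlapped. The dimmer probe set (1449943_at) stayed between 9.57 and 11.1, at the level of the olfactory receptor probe sets.

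Rbpj binds DNA at a short core, TGGGAA. This core was looked for on both strands in the 250 bases before the transcription start of the members, in RefSeq promoter sequences of the mouse assembly GRCm38.p6. Promoters of 8 of the 10 genes were in the table, with 10 starts in all, and those of Hes1 and Hey1 were not in it. The core or its reverse, TTCCCA, was found for 3 genes, Hes5, Rbpj and Lfng, at 4 of the 10 starts, against 21.6% of all 32851 promoters of the same length. The 2 Rbpj starts overlap and share a match. The promoters of Hes5 and Lfng are shown because a Notch target and a modifier of the receptor each hold the core once on each strand, with the matches in capitals. The Hes5 stretch is chr4:154960673-154960922 on the plus strand, with matches that begin 226 and 82 bases before the start. The Lfng stretch is chr5:140607091-140607340 on the plus strand, with matches that begin 135 and 108 bases before the start. A match is a description of these letters and not a bound site, and the arrays did not measure binding.
Hes5: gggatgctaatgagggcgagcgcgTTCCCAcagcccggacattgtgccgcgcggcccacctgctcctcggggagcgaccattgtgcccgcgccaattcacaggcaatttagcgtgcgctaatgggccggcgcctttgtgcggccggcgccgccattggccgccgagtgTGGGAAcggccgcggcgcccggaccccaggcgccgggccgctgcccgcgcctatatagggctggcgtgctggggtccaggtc
Lfng: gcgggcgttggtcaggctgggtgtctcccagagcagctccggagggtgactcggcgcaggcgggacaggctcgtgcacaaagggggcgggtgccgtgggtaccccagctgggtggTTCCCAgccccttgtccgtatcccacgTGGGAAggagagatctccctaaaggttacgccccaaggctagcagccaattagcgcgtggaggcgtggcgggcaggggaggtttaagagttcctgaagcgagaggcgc

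For the question of whether Pax6 dosage alters Notch pathway RNA in the newborn lens, no difference between the genotypes passed the test in any member. With limma, 0 of the 17 probe sets passed an adjusted p of 0.05, as did 0 (0%) of all 22626 probe sets. At an unadjusted p under 0.05 there were again 0 of the 17, against 450 (1.99%) of all probe sets, and the methods' t-test gave 0 of the 17 and 665 of all at that level and 0 of all after adjustment. A single probe set, that of Lfng, had no overlap between the genotypes, against 6.18% of all probe sets. The log2 differences ranged from −0.31 to 0.47, with 13 above 0 and 4 below, and a median of 0.08 beside −0.01 for all probe sets. The intervals at the brightest probe sets, which reach from −0.73 to 1.25, come from the fit without the replicate block. They are wide, so changes of moderate size could have gone undetected in that fit for most members. With the block the standard error was smaller at each of these probe sets, to unequal degrees. It was 0.106 against 0.320 for Hey1, 0.115 against 0.331 for Notch3 and 0.240 against 0.324 for Hes5. No intervals were made for the blocked fit. In the blocked fit, 2 of the 17 had an unadjusted p under 0.05, those of Notch3 and Jag1 given above and in opposite directions, where 9.03% of all probe sets did so. The adjusted threshold was passed by 0 of the 17 in this fit and by 2 (0.00884%) of all probe sets. The direction was the same in all same-numbered pairs for 5 of the 17, with 3 higher and 2 lower in heterozygous lenses, against 13.8% higher, 17.1% lower and 30.9% in either direction among all probe sets.

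**Figure D2:**
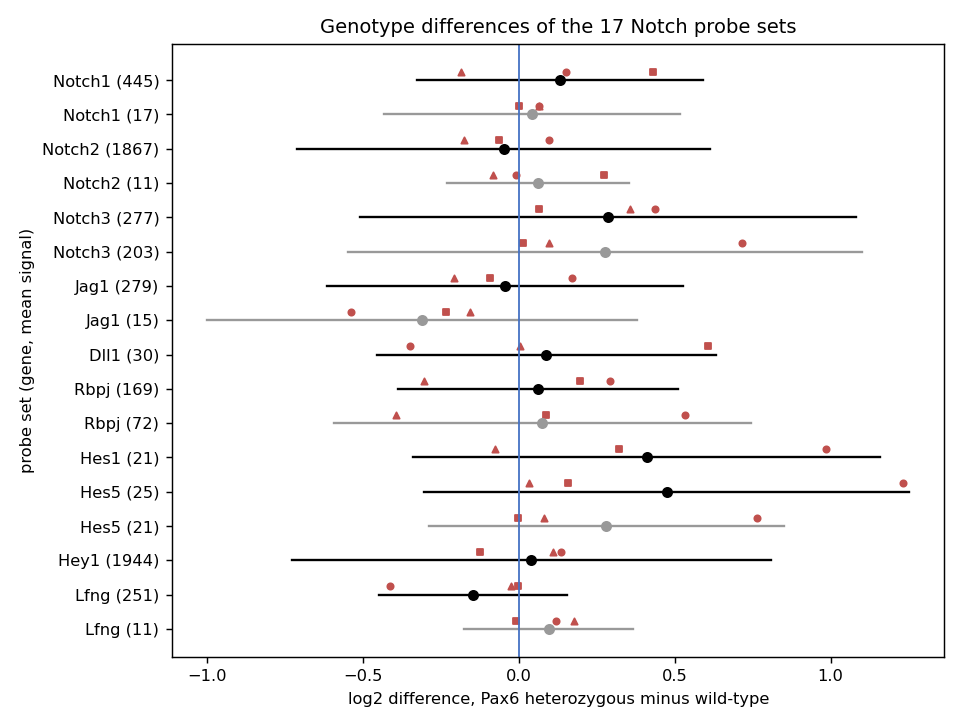
Log2 difference of each of the 17 Notch probe sets, heterozygous minus wild type, with the mean signal in brackets. Points are means with 95% intervals from limma without the replicate block (black for the brightest probe set of a gene, gray for the others). Small red symbols are the same-numbered pairs (circle 1, square 2, triangle 3). Every interval includes 0, and the pairs numbered 1 lie far to the right for Hes1 and Hes5.

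The members varied more with the replicate number than with the genotype. In 16 of the 17 probe sets, the range between the means of same-numbered samples was larger than the difference between the genotype means. This description takes a range of 3 means against a difference of 2, which favors the range. The count over all probe sets was not taken, so the pattern is not shown to be particular to the members. Same-numbered samples also deviated together over all probe sets, as given under the processing. A test of the number in the fit that held it as a block, chosen after the values were seen, passed the adjusted threshold for 5 of the 17 probe sets, against 19.4% of all probe sets. These belonged to Hey1 (adjusted p = 0.0165), Notch3 (adjusted p = 0.0184 and 0.0464), Notch2 (adjusted p = 0.0246) and the dimmer Jag1 probe set (adjusted p = 0.0299). The share of all probe sets rose with signal. Among probe sets with a median signal of at least 50, 50.2% passed, beside 5 member probe sets. With an intensity trend in the fit, 27.8% of all probe sets passed, beside 6 of the 17. The members were thus not shown to vary more with the number than probe sets of like signal. When any 1 sample was left out, between 0 and 4 of the 17 passed, against 6.82% to 10.3% of all probe sets. The 4 that passed without wild type replicate 1 included Hes5, which is not among the 5 above. None of the 17 passed without wild type replicate 3, heterozygous replicate 1 or heterozygous replicate 3. Leaving out a sample leaves 1 residual degree of freedom per probe set in this fit. What the replicate numbers share is not given in the sources used here.

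The numbers set the members apart in different ways. Hey1 and Notch3 were highest in the samples numbered 1, where the geometric mean of the pair was 2705 for Hey1, against 1465 and 1657 in the samples numbered 2 and 3, and 389 for Notch3, against 221 and 216. Notch2 was highest in the samples numbered 3, with 2349 against 1880 and 1365. Jag1 was highest in the samples numbered 2, with 348 at its brighter probe set against 224 and 265 (adjusted p = 0.0545 for the number). For Lfng these means were 252, 251 and 249, although the samples numbered 1 held both its highest and its lowest value.

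**Figure D3:**
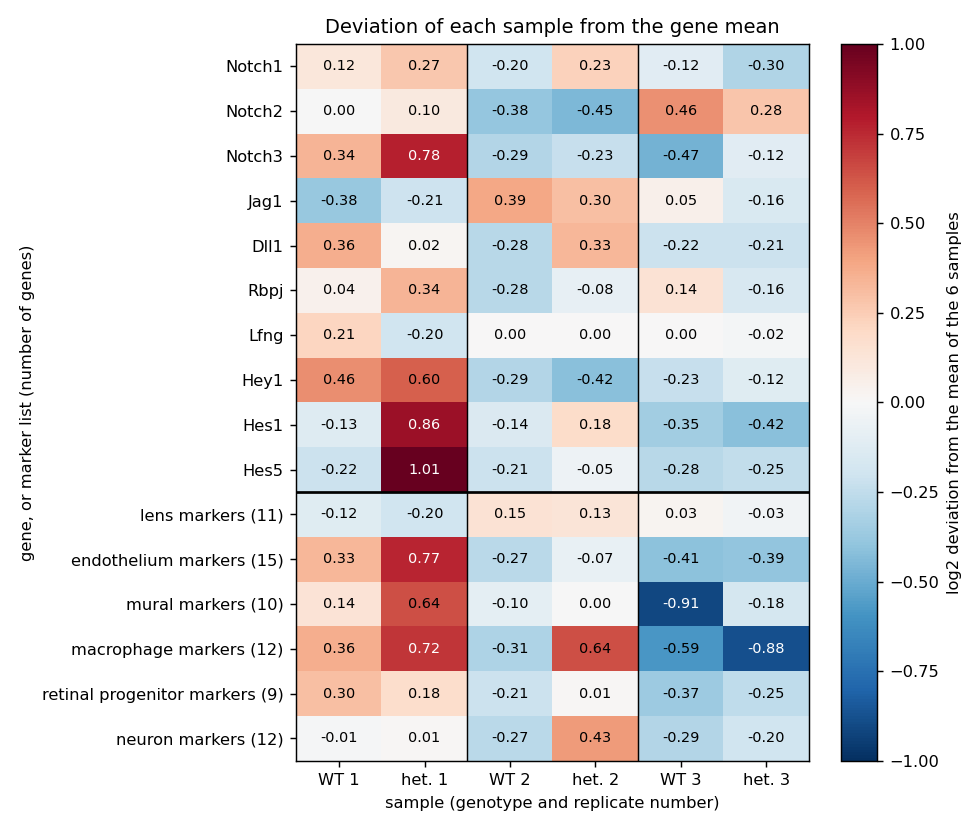
Log2 deviation of each sample from the mean of the 6 samples, for the brightest probe set of each member (upper rows) and as the median over the genes of each marker list (lower rows, number of genes in brackets). Samples with the same replicate number stand side by side. Hey1, Notch3 and the endothelium, mural, macrophage and retinal progenitor markers are above their means in the samples numbered 1. Hes1 and Hes5 are far above theirs in heterozygous replicate 1 alone.

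Many markers of vessels were highest in the samples numbered 1, as Hey1 and Notch3 were, but this was not particular to vessels. Of 12 macrophage markers, 7 were highest in replicate 1 of each genotype. The same held for 5 of 9 retinal progenitor, 4 of 12 neuron and 0 of 11 lens markers. Of 15 endothelium markers, 10 were highest in replicate 1 of each genotype, and their summed signal was 2238, 1119 and 959 in wild type and 4032, 1341 and 1220 in heterozygous lenses. Flt1, a receptor for vascular endothelial growth factor, read 914, 145 and 175 and then 1854, 140 and 225. Tek, the angiopoietin receptor, was highest in the samples numbered 1 as well, with 628 and 927. For all 10 mural markers the sum was 2642, 1396 and 796 in wild type and 4743, 1897 and 1457 in heterozygous lenses, with 4 of the 10 highest in replicate 1 of each genotype. Rgs5, a regulator of G protein signaling in mural cells, read 2269, 1152 and 644 and then 4093, 1594 and 1241. Acta2, smooth muscle actin, read 110, 60.2 and 34.3 and then 197, 87.0 and 59.1, whereas 4 of the 10 mural markers stayed under 50 in all samples. Macrophage markers were high in the same samples, with sums of 1536 and 1682 in the samples numbered 1 against 312 to 1335 in the others, C1qb (complement) at 528 and 557 and Mrc1 (mannose receptor) at 412 and 398. Signals stayed under 50 in all samples for 6 of the 15 endothelium and 5 of the 12 macrophage markers. In wild type replicate 1, Flt1 and Tek made up much of the endothelium sum and Rgs5 most of the mural sum. The share of all genes highest in replicate 1 of each genotype was not counted. The replicate number passed the adjusted threshold for 11 endothelium, 6 mural and 6 macrophage markers, against 21.1% of all genes. By log2 difference, 14 of 15 endothelium, 9 of 10 mural and 10 of 12 macrophage markers were higher in heterozygous lenses. Among all genes, 5823 of 12393 were higher. No marker of these lists passed the adjusted threshold between the genotypes, with or without the block. The part of these cells in the signals of Hey1 and Notch3 was not tested.

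Heterozygous replicate 1 was the sample that set Hes1 and Hes5 apart. In it, 14 of 15 endothelium markers, 5 of 10 mural, 5 of 12 macrophage, 3 of 9 retinal progenitor and 2 of 12 neuron markers were at their highest of the 6 samples. The share of all genes at their highest in this sample was not counted. The summed signal of 9 retinal progenitor markers was 988, 533 and 568 in wild type and 1553, 826 and 671 in heterozygous lenses, highest in heterozygous replicate 1. Over the list, the median log2 deviation from the mean of the 6 samples was 0.30 in wild type replicate 1 and 0.18 in heterozygous replicate 1. Fgf15, a growth factor of retinal progenitors, read 233, 57.4 and 50.8 in wild type and 746, 220 and 207 in heterozygous lenses. It was higher in each pair, by 1.68, 1.94 and 2.03 on the log2 scale, and passed the adjusted threshold in the blocked fit (limma, adjusted p = 0.0357) but not without the block (adjusted p = 1.00). Sfrp2, a secreted Wnt modulator and the brightest of the list, was highest in wild type replicate 1 at 417. In wild type replicate 1 the sum of the list was 988, under the 1553 of heterozygous replicate 1. Hes1 and Hes5 read 18.1 and 20.0 there, close to the highest olfactory receptor value. The relation between these values was not tested. The neuron markers had sums of 834 to 1003 in wild type and 1082 to 1642 in heterozygous lenses. These sums did not overlap between the genotypes and were highest in heterozygous replicate 2. Bright genes weigh most in such a sum. The median log2 deviations over the list did overlap, with −0.01 in wild type replicate 1 and −0.20 in heterozygous replicate 3. Of the 12 genes, 2 had no overlap, in opposite directions, against 6.07% of all genes. Stmn3, a stathmin and the higher of these 2, read 428 in heterozygous replicate 2. Otx2, a homeobox factor of retina, read 442 and 411 in heterozygous replicates 1 and 2 and at most 194 in the others. Elavl4, an RNA-binding protein of neurons named after its values were seen, went the other way without overlap, with 68.6, 80.1 and 66.6 against 50.4, 54.1 and 47.5 (limma, log2 difference −0.50, unadjusted p = 0.00656, adjusted p = 1.00). The part of vessel and retinal cells in the signals of Hes1, Hes5 and, as given further on, Hes6 was not tested.

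Most lens markers were highest in the same samples as Jag1. Of 11 lens markers, 9 were highest in replicate 2 of each genotype, as Jag1 was. The summed signal of all 11 was 112250, 135109 and 122287 in wild type and 107800, 132263 and 119498 in heterozygous lenses. The share of all genes highest in these samples was not counted. The replicate number passed the adjusted threshold for 3 of the 11, against 21.1% of all genes. Notch2 was lowest in the samples numbered 2. The relation between these values was not tested.

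Among the other genes of the pathway, 50 of 58 listed genes had a probe set of their own, and none of the 50 passed the test between the genotypes. With limma, 0 had an unadjusted p under 0.05, against 2.24% of all genes at their brightest probe set, and 0 passed after adjustment. There were 25 above 0 and 25 below, with a median log2 difference of 0.01 beside −0.01 for all genes. A single one, Mib1, had no overlap between the genotypes, against 6.07% of all genes. In the blocked fit, 6 of the 50 (12%) had an unadjusted p under 0.05, against 9.83% of all genes. All 6 were higher in heterozygous lenses, as were 658 of the 1218 such genes among all genes. Each was higher in 3 of 3 pairs, which a small p in this fit favors, so this adds no support. They were Jag2, Mfng, Maml1, Hes6 and, named after their values were seen, Ctbp1 and Heyl, and none of them passed the adjusted threshold.

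**Figure D4:**
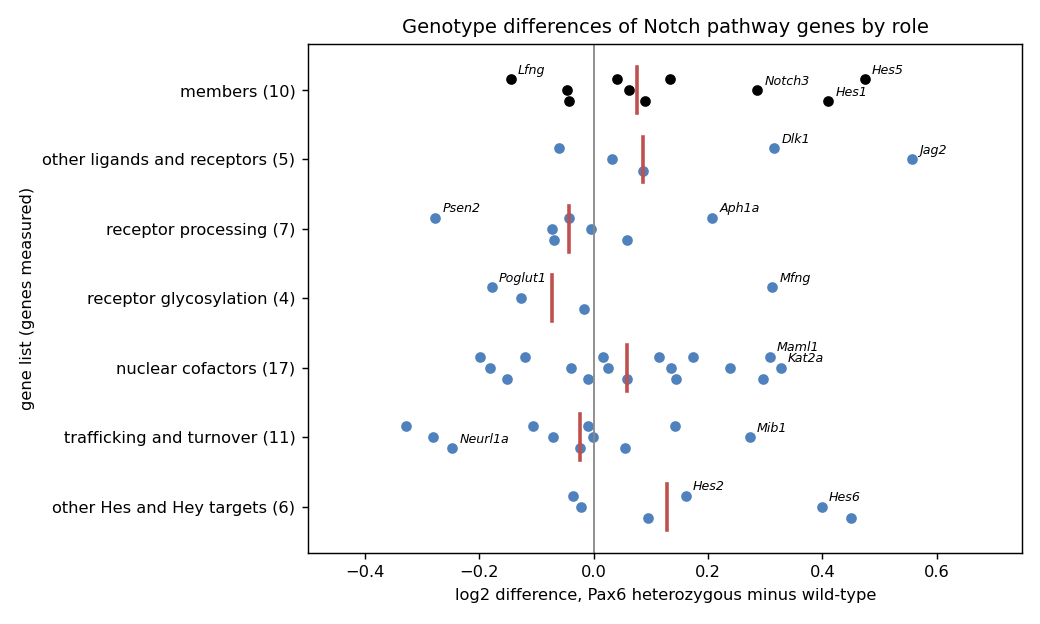
Log2 difference, heterozygous minus wild type, of each measured Notch pathway gene at its brightest probe set, by role, with the number of genes in brackets. Points are genes (black for the 10 members), their height within a row has no meaning, and red bars are medians. The medians lie between −0.07 for receptor glycosylation and 0.13 for the other Hes and Hey genes.

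Of 5 other ligands and receptors, the ligand Jag2 had the smallest p. It read 43.6, 28.4 and 45.7 in wild type and 89.7, 36.9 and 54.4 in heterozygous lenses, so that the log2 difference was 0.56 with a standard error of 0.35 (limma, adjusted p = 1.00). Heterozygous replicate 1 was far above the rest. Dlk1, a ligand-like membrane protein, differed by 0.32 ± 0.40, where the value after ± is again the standard error. Notch4, a receptor of endothelium, read 51.9 and 48.3 in the samples numbered 1 and at most 20.0 in the others, and the ligand Dll4, also of endothelium, stayed between 9.42 and 11.7.

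Of 7 measured genes of receptor cleavage, 5 were above 100 in all samples, among them Adam10, the protease that makes the outer cut, at 2623 to 3801, and Psenen, a subunit of gamma-secretase, at 962 to 1140. Psen2, a catalytic subunit of gamma-secretase, differed by −0.28 ± 0.17 and was lower in 3 of 3 pairs at signals of 16.4 to 26.3. Aph1a, another subunit, differed by 0.21 ± 0.23. Of 4 genes of receptor glycosylation, Mfng, a relative of Lfng, differed by 0.31 ± 0.16 at signals of 14.9 to 23.3, and Poglut1, which adds glucose to the receptor, by −0.18 ± 0.28. None of these passed the adjusted threshold.

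Of 17 nuclear cofactors, 10 were above 100 in all samples. Maml1, which joins Rbpj and the cleaved receptor, read 174, 230 and 268 in wild type and 246, 273 and 303 in heterozygous lenses, a log2 difference of 0.31 ± 0.19 with each pair higher. Kat2a, a histone acetyltransferase, differed by 0.33 ± 0.29. Of 11 genes of trafficking and turnover, Mib1, a ubiquitin ligase that lets ligands signal, read 11.98, 16.5 and 14.2 and then 16.6, 17.4 and 17.1, near the highest olfactory receptor values. Neurl1a, another such ligase, differed by −0.25 ± 0.24 at signals of 9.47 to 19.0. Nrarp, a feedback inhibitor that Notch induces, read 600, 245 and 364 in wild type and 650, 342.5 and 269 in heterozygous lenses, highest in the samples numbered 1 as Hey1 was (log2 difference 0.05). It was named after its values were seen.

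Of 6 other Hes and Hey genes, Hes6, which opposes Hes1 and favors neural differentiation, was above 100 in all samples. It read 755, 835 and 718 in wild type and 978, 1376 and 770 in heterozygous lenses, a log2 difference of 0.40 ± 0.22 (limma, adjusted p = 1.00). Wild type replicate 2 lay above heterozygous replicate 3, so the groups overlapped, although each heterozygous sample was above its same-numbered wild type sample. In the blocked fit the unadjusted p was 0.0300 (limma, adjusted p = 0.509). Hes2 stayed between 7.96 and 9.56, at background. Heyl was highest in the samples numbered 1, at 27.9 and 41.4 against 11.2 to 16.2 in the others.

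Lens genes of cell cycle exit and fiber formation, which genetic work in mice has tied to Notch signaling, also held none that passed. Of 9 such genes, 0 had an unadjusted p under 0.05 with limma, against 2.24% of all genes. There were 2 above 0 and 7 below, beside 6570 of 12393 genes below 0. The median log2 difference was −0.16, beside −0.01 for all genes. Foxe3 and Maf, both below 0, read 8.77 to 14.7 and 10.1 to 18.8, near background. Cdh1, the cadherin of lens epithelium, read 491, 566 and 857 in wild type and 312, 501 and 566 in heterozygous lenses, lower in 3 of 3 pairs (log2 difference −0.48 ± 0.30, adjusted p = 1.00). In the blocked fit its unadjusted p was 0.0103 (limma, adjusted p = 0.420), the 1 of the 9 genes under 0.05 there, against 9.83% of all genes. Cdkn1c, an inhibitor of the cell cycle in young fibers, differed by −0.19 ± 0.17 and was also lower in 3 of 3 pairs.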

How the data were processed

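Lens RNA of 6 newborn mice, 3 of each genotype, was amplified with a NuGEN kit and hybridised to Affymetrix mouse arrays, a sample to each. The authors made the deposited signal intensities with RMA (background correction, normalization across arrays, probe set summary), on a linear scale; the software version is not given in the sources used here. The methods name a whole-genome array, but the size and annotation of the table are those of a smaller array of the same family. An array has no read depth, and the number of arrays limits the precision. RMA pulls ratios of dim probe sets toward 1.

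The deposited signals were not normalized again and were taken to log2. Without the 64 control probe sets, 22626 were tested (heterozygous less wild type) in limma 3.58.1 under R 4.3.3 (lmFit and eBayes, Benjamini-Hochberg over all probe sets, threshold 0.05). Probe sets were named by the platform annotation, with 20380 of a single gene, 691 of several and 1555 of none. The probe set with the highest mean log2 signal stood for a gene. Means, SDs and ranges of signals are linear. Intervals are 95% intervals from limma without the replicate block.

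The members and gene lists were chosen with earlier results of these data known. Every member probe set is given. Of each list of other pathway genes the 2 with the smallest p are named, and of each marker list the 2 brightest. Exceptions are marked as named after their values were seen, and Adam10, Psenen, Notch4, Dll4, Heyl, Foxe3 and Maf are further examples of that kind.

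Samples with the same replicate number deviated together from their genotype means, with correlations of 0.645, 0.734 and 0.604 against −0.0751 to −0.496 for other pairs, which passes the bound of 0.1 for pairing. The pairing comes from the numbers in the sample titles. Alternatives were a fit blocked on that number, the methods' t-test, a filter on probe sets with a median under 50, quantile normalization, centring on array medians, an intensity trend with a robust prior, probe sets averaged per gene, and the omission of each sample in turn. The steps were tested on simulated data. Plots were made in Python 3.11.15 (matplotlib 3.10.9).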

Additional observations from a re-analysis of the deposited data

How the results depend on the processing

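Under all alternatives, 0 of the 17 member probe sets passed the adjusted threshold. Over all probe sets the count past that threshold was 0, and 2 with the replicate block. The count of member probe sets with an unadjusted p under 0.05 was 0, with the replicate block 2, and from 0 to 1 when a sample was left out. For the other pathway genes it was 0, with the replicate block 6, and from 0 to 3 when a sample was left out. The replicate block changed no adjusted call of a member or of another pathway gene. Outside these, it took Fgf15 past the adjusted threshold (0.0357), and Cdh1 (0.0103) and Pax6 (0.0315) past the unadjusted one. In the blocked fit, 5 of 10 mural markers had an unadjusted p under 0.05, against 9.83% of all genes. Without the block it was 0 of the 10. The blocked counts were 4 of 15 for endothelium, 2 of 12 for macrophages and 1 of 11 for lens. They were 3 of 9 for retinal progenitors and 5 of 12 for neurons. The count of member probe sets without overlap was 1, with quantile normalization 0, with median centring 0, and from 1 to 4 when a sample was left out, where fewer samples make overlap less likely. For the unadjusted p and the overlap, the share of all probe sets on leaving out a sample was not counted. These ranges are therefore not shown to be particular to the members or the pathway. The count with an effect of the replicate number was 5, with median centring 6, with the intensity trend 6, and from 0 to 4 when a sample was left out. Centring added the dimmer Notch1 probe set and the trend added the brighter Jag1 one. The filter on dim probe sets gave 5, with the brighter Jag1 probe set in place of the dimmer one. Causes were not tested. Of 127 single gene values under alternatives, 14 changed sign, 13 of them on leaving out a sample. The ranges on leaving out a sample were −0.25 to 0.17 for Notch2, −0.0297 to 0.53 for Notch3, −0.24 to 0.14 for Jag1, −0.0531 to 0.29 for Dll1, −0.25 to 0.28 for Hey1 and −0.0903 to 0.16 for Rbpj. The other sign change was Notch2 at 0.0072 for the mean of its probe sets. The filter on dim probe sets left no value for Dll1, Hes1 and Hes5, whose signals near background limit what can be read from them.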
